A study of Mus musculus with 15 samples.

Results

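The SOX and forkhead transcription factors were followed in sorted mouse small intestinal epithelium. Members were the rows of the in vivo count table whose symbol is Sox followed by a number, or Fox followed by a letter from a to s and a number. The rule found 64 of 24594 rows, 19 SOX genes and 45 forkhead genes. The values come from 6 of the series' 15 RNA-seq libraries, 3 of fetal and 3 of adult crypt epithelium, all from C57Bl/6J mice without treatment. Fetal cells came from E16.5 proximal intestine and were sorted as EpCAM+/DAPI-/CD31-/CD45- cells. Adult cells came from wild-type crypts of small intestine, its proximal 20%, and were sorted as EpCAM+/DAPI-/Lin-/CD24mid cells. The comparison asks how fetal epithelium differs from the adult crypt, but age and sort gate changed together and cannot be told apart. The labels do not say how many animals gave a library, so the spread behind each p-value is that of 3 libraries a group and may be partly technical.

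SOX proteins bind the minor groove of DNA through an HMG box and bend it, and forkhead proteins bind through a winged helix domain. In the gut, SOX9 marks Wnt-driven crypt cells, FOXA proteins open endodermal chromatin, and FOXF1, FOXF2 and FOXL1 belong to the mesenchyme beneath the epithelium. FOXO proteins are held out of the nucleus by insulin and AKT signalling, and FOXM1 drives genes of cell division.

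Libraries held 5795518 to 10538004 counts, and the 64 members together took 0.179% to 0.201% of them. Values are given as CPM, the usual scaling of counts to library size. The epithelial markers Epcam, Cdh1, Vil1, Krt8 and others were present in both groups, summing to 4830 to 4890 CPM in fetal and 6770 to 7280 CPM in adult libraries over 10 genes. Mesenchyme markers summed to 201 to 279 CPM in fetal and 8.47 to 16.4 CPM in adult libraries, and pancreas markers to 946 to 2000 and 12.3 to 18.8 CPM. In bulk libraries, fewer cells of a type and less RNA per cell cannot be told apart.

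Of the 64 members, 28 passed the filter on low counts and were tested, 22 had counts but stayed under the filter, and 14 had 0 counts in all 6 libraries. Fetal libraries had counts for 43 or 44 members each and adult libraries for 32 to 34. Every fetal library was deeper, at 7888998 to 10538004 counts against 5795518 to 6045113, so these numbers were not compared at equal depth. Of the 28 tested members, 18 differed between the groups (edgeR quasi-likelihood test, adjusted p under 0.05), 12 higher and 6 lower in fetal cells. That is 64.3%, beside 54.9% of all 13314 genes tested. Over all genes 29% were higher and 25.9% lower. The tested members' median log2 fold change was 0.13, beside 0.01 over all genes. Sox11, Foxf1, Foxp2, Sox12 and Sox5 were higher by over 2-fold, 5 members, beside 16% of all genes, and 0 were lower by over 2-fold, beside 7.95%. The ranges of the 2 groups did not overlap for 18 of the 28, beside 62.3% of all genes tested. Among tested SOX genes 6 of 7 were called, and among tested forkhead genes 12 of 21. Sox5, Sox11, Foxf1 and Foxp2 passed the filter, a cutoff of 1.44 CPM, only through their fetal libraries, so a difference in these 4 was built in.

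**Figure D1:**
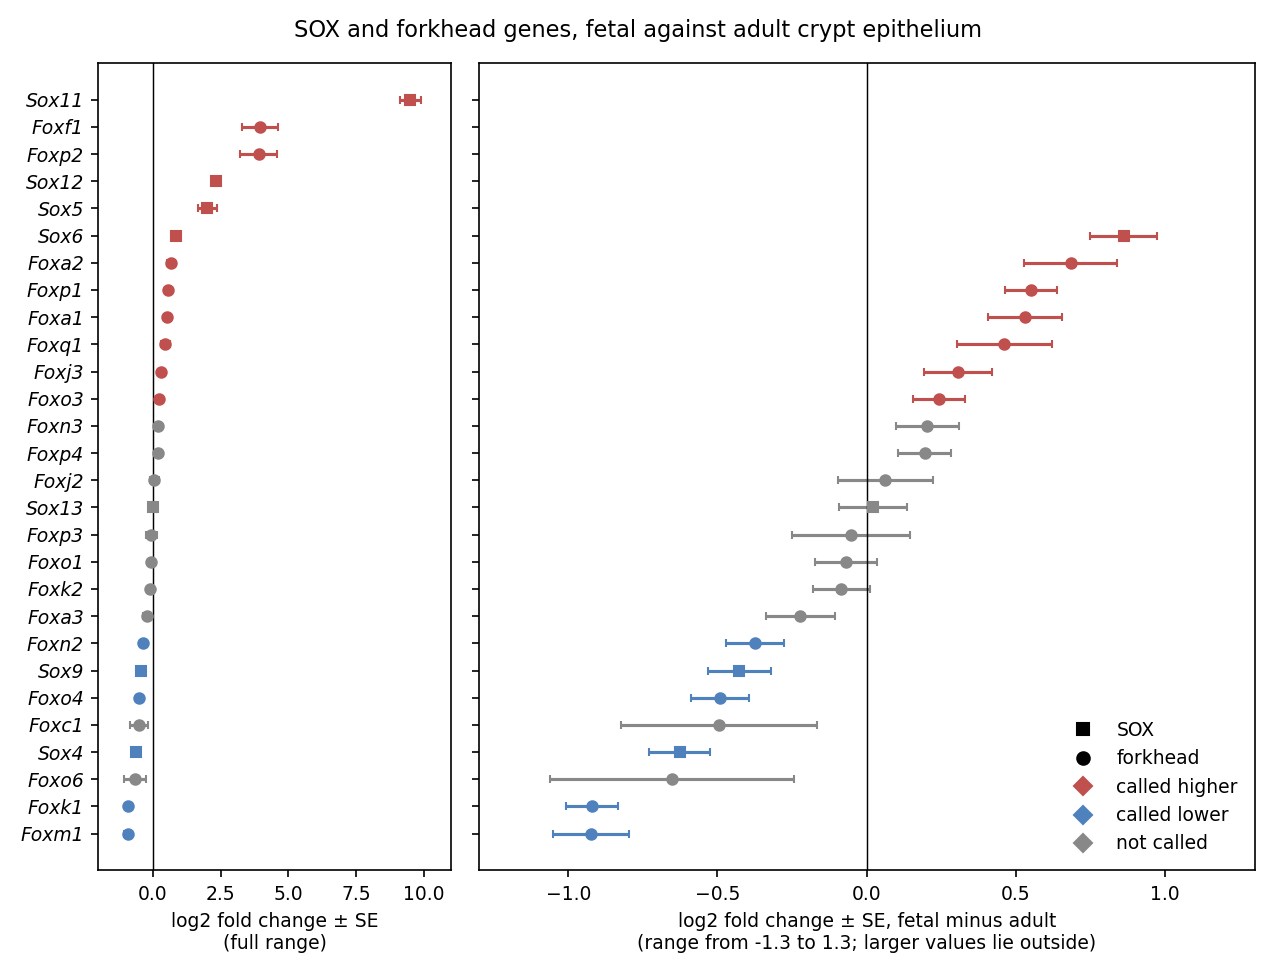
Log2 fold change of the 28 tested members, fetal minus adult crypt epithelium, with its standard error (3 libraries per group). Squares are SOX and circles forkhead genes, red called higher, blue called lower and grey not called. The left panel shows the full range, with Sox11 at 9.50, and the right panel the range near 0, which leaves out the 5 members over 2-fold higher.

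The 3 SOXC genes, Sox4, Sox11 and Sox12, were all called, 2 higher and 1 lower. SOXC factors act in progenitor cells of many embryonic tissues, and SOX4 in the gut also in secretory and tuft cell progenitors. Each is a gene of 1 exon. The 250 bases before the RefSeq start of each gene (build GRCm38.p6, 5′ to 3′ on the gene's strand) are shown because the 3 paralogues changed in different directions. Capitals mark the GC box (GGGCGG), the CCAAT box, the forkhead core (GTAAACA), the SOX core (AACAAT), the TCF/LEF core (CTTTGAT) and the TATA box (TATAAA), each searched on both strands. Neighbouring matches may overlap. Sox11 lies at chr12:27342719-27342968, Sox12 at chr2:152398047-152398296 and Sox4 at chr13:28953700-28953949, each on the minus strand.
Sox11: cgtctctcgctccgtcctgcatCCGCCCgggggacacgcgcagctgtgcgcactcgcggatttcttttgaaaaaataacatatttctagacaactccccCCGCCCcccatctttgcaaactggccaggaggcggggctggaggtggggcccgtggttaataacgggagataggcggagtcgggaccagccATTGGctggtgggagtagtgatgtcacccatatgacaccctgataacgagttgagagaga
Sox12: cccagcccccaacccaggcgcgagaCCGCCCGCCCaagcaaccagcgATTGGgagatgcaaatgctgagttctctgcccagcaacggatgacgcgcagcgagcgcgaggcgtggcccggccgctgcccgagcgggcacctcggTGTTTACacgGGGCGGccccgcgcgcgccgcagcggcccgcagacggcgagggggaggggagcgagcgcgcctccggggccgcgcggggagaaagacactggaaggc
Sox4: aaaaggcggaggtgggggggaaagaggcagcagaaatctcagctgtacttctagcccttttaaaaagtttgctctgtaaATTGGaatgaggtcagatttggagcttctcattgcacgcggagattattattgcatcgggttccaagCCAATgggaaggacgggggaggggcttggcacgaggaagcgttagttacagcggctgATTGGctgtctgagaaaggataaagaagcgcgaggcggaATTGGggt
The window of Sox11 holds 2 GC boxes and 1 CCAAT box, and that of Sox12 holds 3 GC boxes, 1 CCAAT box and 1 forkhead core. The window of Sox4 holds 4 CCAAT boxes and 0 GC boxes. Of all 32851 promoter windows in the RefSeq table, 32.7% hold a GC box, 33.8% a CCAAT box and 3.17% the forkhead core. A match describes letters and shows no binding.

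Sox11, which maintains neural and mesenchymal progenitors, had 64.7, 50.0 and 47.5 CPM in the 3 fetal libraries, the first of them highest. The adult libraries held 1 count in replicate 1 and 0 in the others. Fetal cells thus had 1427 counts against 1, a ratio of 926 (95% counting interval 166 to 36600). The fitted log2 fold change was 9.50 ± 0.38 (SE, adjusted p = 4.3e-10), and 11.69 without adult replicate 1, so its size depends on that single count. Its direction was built in, because Sox11 passed the filter only through fetal libraries. Sox12, a weaker activator of the same group, stood at 40.9, 44.3 and 34.2 CPM in fetal and 7.78, 7.13 and 8.64 CPM in adult libraries. Every fetal value lay above every adult value, a 5.05-fold difference (log2 2.34 ± 0.16, adjusted p = 5.13e-08).

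Sox4 went the other way. It stood at 155.9, 137.1 and 124.6 CPM in fetal and 206.8, 198.5 and 238.7 CPM in adult libraries. The ranges did not overlap, and Sox4 was lower in fetal cells by a log2 of −0.63 ± 0.10 (adjusted p = 1.85e-04). In the GENCODE annotation 54.6% of its exon bases overlap the antisense RNA Gm26735. The strand setting of the counting is not given in the sources used here, so reads of the 2 cannot be told apart.

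Per kilobase of exon, the summed SOXC level was 39.4 to 49.5 CPM in fetal and 43.0 to 51.7 CPM in adult libraries, ranges that overlap. Its makeup differed. Sox4 held 65.3% ± 0.97 (SD, n = 3) of that level in fetal and 96.2% ± 0.12 in adult libraries. Sox11 held 14.6% ± 1.12 in fetal and 0.0158% ± 0.0274 in adult libraries. Sox12 held 20.1% ± 1.95 in fetal and 3.79% ± 0.0898 in adult libraries. Of 12 enteroendocrine markers 11 were higher in fetal cells, as were 12 of 12 tested mesenchyme markers, beside 29% of all genes. Most of these mesenchyme markers, like Sox11, passed the filter only through fetal libraries, so their direction was built in. The summed enteroendocrine markers overlapped, at 2160 to 2940 CPM in fetal and 1840 to 2210 CPM in adult libraries. Chgb, at 1559 to 2217 CPM in fetal and 1360 to 1601 CPM in adult libraries, made up most of that sum. The sum therefore says little of the rarer markers. The part of either cell type in the Sox11 and Sox12 results was not tested.

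**Figure D2:**
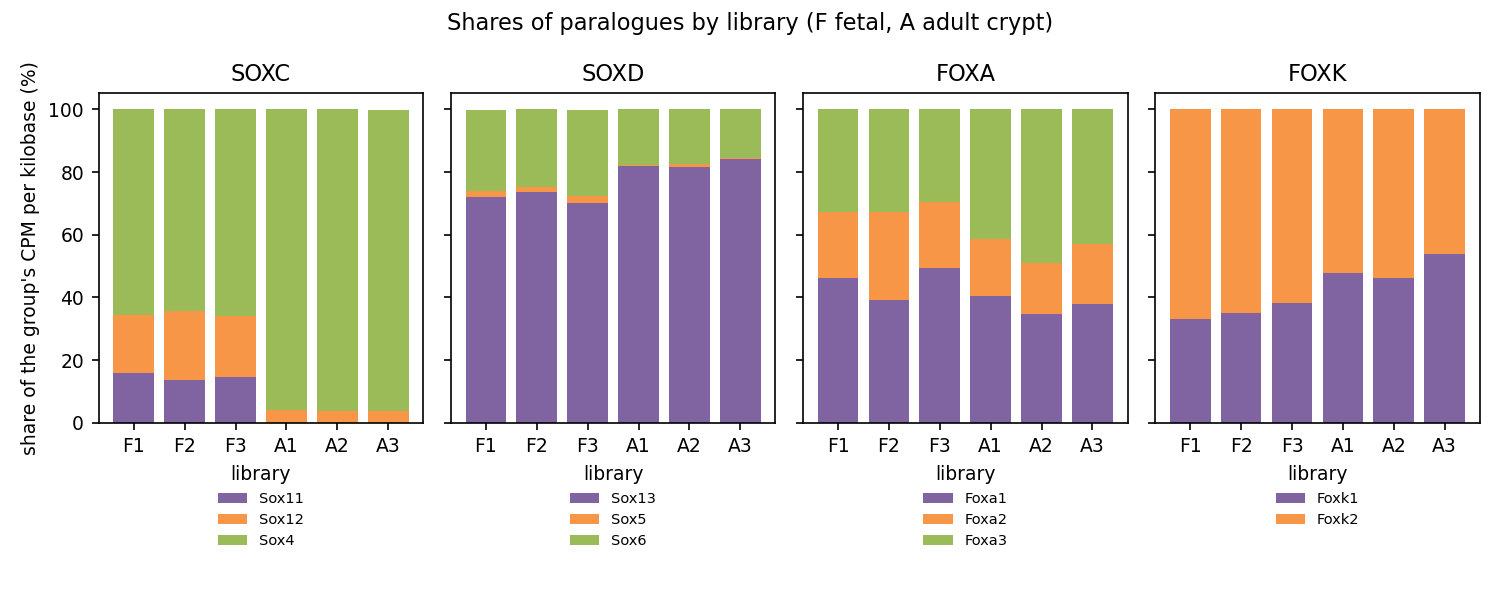
Share of each paralogue in the summed CPM per kilobase of exon of its group (percent, stacked to 100), for 3 fetal (F1 to F3) and 3 adult crypt libraries (A1 to A3). Sox4 makes up 96.1% to 96.3% of SOXC in adult and 64.2% to 66.0% in fetal libraries, and Foxk1 46.3% to 53.7% of FOXK in adult and 33.0% to 38.1% in fetal libraries.

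Sox9, of the SOXE group, maintains crypt progenitors and is needed for Paneth cells (Entrez 20682, chromosome 11, 112782210 to 112787757 in GRCm38.p6). It stood at 194.5, 163.1 and 157.5 CPM in fetal and 225.9, 208 and 257.9 CPM in adult libraries. The 3 adult values lay above the 3 fetal values, and Sox9 was lower in fetal cells by a log2 of −0.43 ± 0.11 (adjusted p = 0.00382). Sox9 had the highest level per kilobase of exon among the 63 members with a known exon length in both groups, 41.5 ± 4.82 CPM (SD, n = 3) in fetal and 55.8 ± 6.11 CPM in adult cells. Its relatives Sox8 and Sox10, factors of neural crest and enteric glia, stayed under the filter. Sox8 had 13 fetal and 4 adult counts. Sox10 had 18, 5 and 7 fetal and 0, 3 and 2 adult counts, a ratio of 3.90 (1.50 to 12.9) to which fetal replicate 1 gave most counts. Of 12 neuronal and glial markers, 5 were tested. Ret, Elavl4, Tubb3 and S100b were higher and Erbb3, which epithelium also expresses, was lower in fetal cells. Elavl4, Tubb3 and S100b passed the filter only through fetal libraries, so their direction was built in. The sum of the 12 markers, most of it Erbb3, was 394 to 427 CPM in fetal and 396 to 566 CPM in adult libraries. The part of glial cells in the Sox10 counts was not tested.

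A list of 16 genes of the crypt lineages in which SOX9 and SOX4 act was followed beside them. Of 13 tested, 7 were lower and 2 higher in fetal cells (median log2 −0.59, against 0.01 over all genes, of which 25.9% were lower and 29% higher). The Wnt feedback gene Axin2 was lower by a log2 of −3.03 ± 0.14, the Paneth lysozyme Lyz1 by −3.14 ± 0.20 and the stem cell receptor Lgr5 by −2.04 ± 0.21. Neurog3, which starts the enteroendocrine lineage, was higher by 3.06 ± 0.31. The tuft cell genes Pou2f3, Trpm5 and Dclk1 had 15 to 28 fetal and 10 to 35 adult counts and were not tested.

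TCF/LEF proteins, HMG box relatives of SOX that bind beta-catenin, were followed with their cofactors. Of 12 tested genes, 4 were higher and 3 lower (median log2 0.05), shares near the 29% and 25.9% of all genes. Tcf7l1, with 177 fetal and 7 adult counts, passed the filter only through fetal libraries. The corepressor Tle2 was higher by 2.68 ± 0.27, whereas Tcf7 was lower by −2.42 ± 0.20 and the corepressor Tle1 by −0.73 ± 0.10. Tcf7l2, the main TCF of intestinal epithelium, was at −0.13 ± 0.10 (adjusted p = 0.287).

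The SOXD genes lack an activation domain and act with partners, as in cartilage. Sox6 stood at 59.1, 59.7 and 62.3 CPM in fetal and 38.5, 30.0 and 31.3 CPM in adult libraries, without overlap (log2 0.86 ± 0.11, adjusted p = 2.6e-05). Sox5 was rarer, at 3.99, 3.99 and 4.69 CPM in fetal and 0.884, 1.36 and 0.864 CPM in adult libraries (log2 2.01 ± 0.35, adjusted p = 2.69e-04), and its adult libraries all lay under the filter. Sox13 stood at 47.4, 51.8 and 45.8 CPM in fetal and 52.3, 40.7 and 49.8 CPM in adult libraries. The Sox13 ranges overlap, with a log2 of 0.02 ± 0.11 (adjusted p = 0.893). Per kilobase, Sox13 held 71.9% ± 1.74 of the SOXD level in fetal and 82.6% ± 1.36 in adult libraries.

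**Figure D3:**
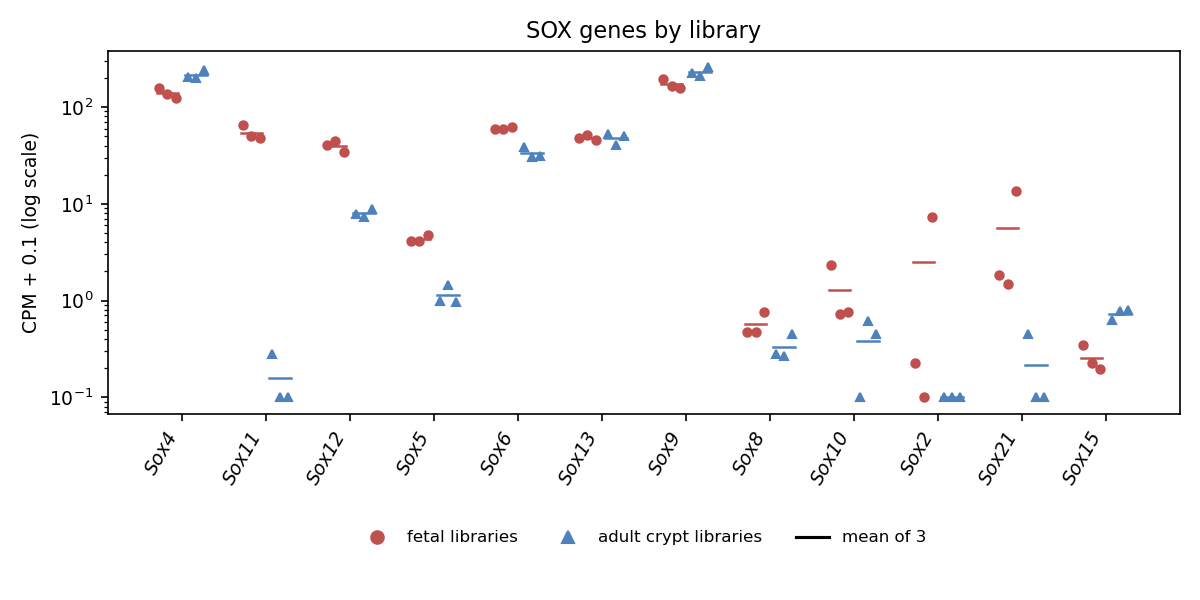
CPM plus 0.1 on a log scale for 12 SOX genes in 3 fetal (red circles) and 3 adult crypt libraries (blue triangles), with horizontal lines at the group means. Sox4 and Sox9 lie lower and Sox5, Sox6, Sox11 and Sox12 higher in fetal cells, and Sox2 and Sox21 each have 1 fetal library, replicate 3, far above the others.

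Sox2 and Sox21, SOXB factors of the foregut and stomach, had most of their counts in a single library. Sox2 had 1, 0 and 76 counts in fetal replicates 1, 2 and 3 and 0 in adult libraries. That is 16.7-fold higher when the adult total is set to 3 counts, and the exact 95% interval starts at 13.2. Sox21 had 14, 11 and 143 fetal and 2, 0 and 0 adult counts, a ratio of 54.5 (14.9 to 454). Neither passed the filter on low counts. Summed stomach markers stood at 46.8, 34.3 and 155 CPM in the same 3 fetal libraries and at 16.2 to 19.3 CPM in adult libraries. Among them Cldn18 stood at 66.6 CPM in fetal replicate 3 and at 10.5 and 6.49 CPM in the other fetal libraries, and Anxa10 at 7.22 against 0.374 and 0.499 CPM. Tff1, Ctse, Pgc, Muc5ac, Gkn1 and Gkn2 were highest in the same library. Muc6, at 18.6, 12.2 and 13.1 CPM, and Barx1, at 2.25, 1.12 and 1.50 CPM, were highest in fetal replicate 1, and Tff2 stood at 2.25, 1.75 and 2.72 CPM. Gkn3, another stomach marker, was lower in fetal cells and passed the filter only through adult libraries. Muc5ac, Gkn1, Gkn2 and Tff2 had 0 adult counts. Foxe1, a factor of thyroid and foregut, had 0, 2 and 11 fetal and 0 adult counts. The part of stomach cells in these counts was not tested.

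Foxq1, which governs the surface mucous cells of the stomach, was also highest in fetal replicate 3. So were other members such as Foxa1, Foxp2, Foxj3 and Sox6, whereas Sox9 and Foxp4 were highest in fetal replicate 1. Foxq1 stood at 35.2, 34.2 and 52.4 CPM in fetal and 28.1, 31.4 and 29.4 CPM in adult libraries. It was called higher (log2 0.46 ± 0.16, adjusted p = 0.0265), but without fetal replicate 3 the value was 0.24 (adjusted p = 0.144). The call was also lost without adult replicate 1 or 3 (adjusted p = 0.0815 and 0.0506). In the annotation 66.1% of its exon bases overlap the antisense gene A530084C06Rik, so its reads may be shared.

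**Figure D4:**
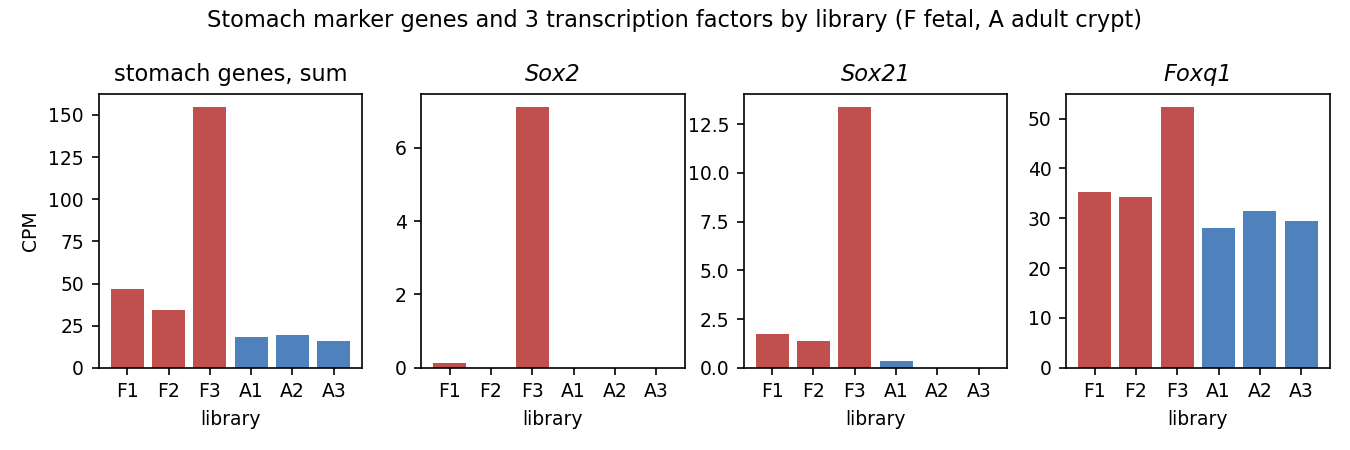
CPM by library (bars) of the summed stomach markers, Sox2, Sox21 and Foxq1 in fetal (F1 to F3, red) and adult crypt libraries (A1 to A3, blue). Each panel has its own axis from 0, and F3 is the highest bar in all 4, with 155 CPM of stomach markers, 7.12 of Sox2, 13.4 of Sox21 and 52.4 of Foxq1.

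Other SOX genes were at the edge of detection. The endothelial factors Sox7 and Sox18 had 9 and 5 fetal and 1 and 0 adult counts, and Sox17, a factor of early endoderm and endothelium, had 0 counts in all 6 libraries. The fetal gate took CD31- cells. Of 11 endothelial markers, 2 were tested, Egfl7 higher and Esam, which passed the filter only through adult libraries, lower in fetal cells. Their sum was 9.09 to 18.0 CPM in fetal and 9.85 to 12.2 CPM in adult libraries, and Cdh5, Kdr, Tie1, Emcn and Erg had 0 adult counts. Pecam1, which encodes CD31, had 32 fetal and 21 adult counts. Sox15 had 4 fetal and 11 adult counts, a ratio of 0.236 (0.0548 to 0.797). Sox1, Sox14 and Sox30 had at most 2 counts in all, and Sox3 had 0. A group total of 0 allows up to 3 counts, which is 0.112 CPM over the fetal libraries and 0.173 CPM over the adult ones.

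The FOXA factors, pioneers of endoderm that are needed for enteroendocrine and goblet cells, differed among themselves. Foxa1 stood at 77.1, 68.3 and 89.1 CPM in fetal and 63.6, 50.4 and 48.8 CPM in adult libraries. The groups did not overlap, with a log2 of 0.53 ± 0.13 (adjusted p = 0.00298). Foxa2 stood at 24.9, 35.0 and 27.2 CPM in fetal and 20.2, 16.6 and 17.5 CPM in adult libraries (log2 0.68 ± 0.16, adjusted p = 0.0023). Its highest library, fetal replicate 2, also held the most pancreas marker RNA, 2000 CPM against 946 and 951, and without it Foxa2 was at 0.53 (adjusted p = 0.0146). Foxa3 stood at 33.3, 34.8 and 32.5 CPM in fetal and 40.0, 43.6 and 33.7 CPM in adult libraries. It was not called (log2 −0.22 ± 0.12, adjusted p = 0.128), although it was lower without adult replicate 3 (−0.32, adjusted p = 0.0353). Per kilobase, Foxa3 held 31.6% ± 1.83 (SD, n = 3) of the FOXA level in fetal and 44.5% ± 4.05 in adult libraries.

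The windows before the starts of Foxa1 (chr12:57546112-57546361) and Foxa3 (chr7:19023540-19023789), both on the minus strand, are shown because Foxa1 was called higher and Foxa3 was not. Capitals mark the same 6 motifs as for the SOXC genes.
Foxa1: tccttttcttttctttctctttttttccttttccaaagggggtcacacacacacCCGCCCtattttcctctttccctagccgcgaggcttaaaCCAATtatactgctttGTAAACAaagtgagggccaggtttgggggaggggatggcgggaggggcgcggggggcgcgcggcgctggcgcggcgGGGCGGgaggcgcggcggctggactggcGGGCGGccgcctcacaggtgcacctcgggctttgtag
Foxa3: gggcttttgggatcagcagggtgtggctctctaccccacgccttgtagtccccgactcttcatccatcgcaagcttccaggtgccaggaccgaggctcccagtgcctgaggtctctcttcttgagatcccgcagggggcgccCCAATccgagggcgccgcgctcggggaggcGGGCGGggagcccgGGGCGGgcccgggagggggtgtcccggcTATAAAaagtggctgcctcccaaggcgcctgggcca
The Foxa1 start in the table lies inside the RefSeq gene span, which runs from 57540628 to 57548029, so the window is within the annotated gene. Foxa1 carries the forkhead core once, at 141 to 135 bases before its start, besides 3 GC boxes and 1 CCAAT box. Foxa3 carries a TATA box at 36 to 31 bases before its start, 2 GC boxes and 1 CCAAT box. Foxa2, also called higher but not shown, has 3 starts. Their windows hold 0 forkhead cores, and that of start 3 holds a TATA box. A TATA box stands in 12.4% of all windows. Among the 41 members with a RefSeq window, taking the most upstream start of each, 27 hold a GC box, 20 a CCAAT box, 2 the forkhead core (Foxa1 and Sox12), 2 a TATA box, and 0 the SOX or TCF/LEF core. Counting all 51 windows of these members, later starts of Foxp1 and Sox6 hold the SOX core and a later start of Sox6 the TCF/LEF core. The shares over all windows of the table also include later starts. Of all windows, 9.42% hold the SOX core and 3.21% the TCF/LEF core. The members' windows had a median GC content of 63.2%, against 52.4% over all windows, and a median of 17 CpG against 6.

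Of 15 endodermal factors that work beside FOXA, all tested, 8 were higher and 5 lower in fetal cells (median log2 0.23), beside 29% higher and 25.9% lower among all genes. Onecut1, a factor of liver and pancreas, had 526 fetal and 0 adult counts and passed the filter only through fetal libraries. Prox1 was higher by 3.72 ± 0.15 and Onecut3 by 3.48 ± 0.27. Hnf4a, the nuclear receptor of enterocyte identity, was lower by −1.06 ± 0.09. Pancreas markers were higher for 11 of 11 tested, most of which passed the filter only through fetal libraries. Their part in the factors that were higher was not tested.

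Forkhead genes of the gut mesenchyme were found almost only in fetal libraries, at low counts. Foxf1, a Hedgehog target of that tissue (Entrez 15227, chromosome 8, 121084386 to 121088154), had 19, 12 and 23 fetal and 1, 0 and 1 adult counts, a ratio of 17.5 (4.62 to 148). Its fitted log2 was 3.94 ± 0.66 (adjusted p = 2.34e-04), and without fetal replicate 1 or 3 it fell under the filter and was not tested. Only fetal libraries carried Foxf1 over the filter, so its direction was built in. Foxf2 had 11, 18 and 4 fetal and 0 adult counts. That is 7.14-fold higher when the adult total of 0 is set to 3 counts, and the exact 95% interval starts at 5.49. Foxl1, which marks cells that feed the crypt with Wnt ligands, had 1, 3 and 5 fetal and 0 adult counts. Fendrr, the RNA transcribed beside Foxf1, had 6, 2 and 9 fetal and 0 adult counts. Foxs1 had 0 counts throughout.

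The mesenchyme markers also stood higher in fetal libraries, summing to 269, 279 and 201 CPM in replicates 1, 2 and 3. Foxf2 ranked these replicates in the same order, and Foxf1 and Foxl1 did not. All 12 tested of 18 were higher in fetal cells, a count that the filter on low counts partly fixes. The adult libraries had 0 counts for 9 of the 18, Sparc, Col5a1, Col6a3, Lum, Thy1, Twist1, Twist2, Postn and Bmp5. Pdgfra stood at 9.23, 12.6 and 10.4 CPM in fetal libraries, where Foxf1 stood at 2.37, 1.50 and 2.16 CPM. The fetal sort took EpCAM+ cells, and the part of mesenchymal cells in the Foxf1, Foxf2 and Foxl1 counts was not tested.

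Foxc1, a forkhead factor of mesoderm, had 12, 19 and 19 fetal and 15, 15 and 16 adult counts, which is 1.50, 2.37 and 1.78 against 2.65, 2.55 and 2.77 CPM. The adult values lay above the fetal ones, yet the difference was not called (log2 −0.50 ± 0.33, adjusted p = 0.219). Foxd1 and Foxd3 had 2 and 4 fetal and 0 adult counts, Foxc2 had 1 and 1, Foxd2 had 7 and 8, and Foxd4 had 0.

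The FOXP genes Foxp1 and Foxp2 were called higher and Foxp3 and Foxp4 were not called. Foxp1, which acts in lung and gut epithelium, stood at 179.6, 155.3 and 178 CPM in fetal and 110.7, 117.9 and 121.9 CPM in adult libraries. The groups did not overlap (log2 0.55 ± 0.09, adjusted p = 1.51e-04). Foxp4, its close relative, stood at 203.1, 190.3 and 171.6 CPM in fetal and 160.2, 174.9 and 158.4 CPM in adult libraries. The ranges overlap, and Foxp4 was not called (log2 0.19 ± 0.09, adjusted p = 0.0793). It passed with library size only and without fetal replicate 3 (adjusted p = 0.0345 and 0.028). Foxp2, known from lung and brain, had 24, 25 and 52 fetal and 4, 0 and 0 adult counts, a ratio of 16.4 (6.21 to 61.3). Its log2 of 3.91 ± 0.68 (adjusted p = 3.05e-04) became 7.84 without adult replicate 1, which held every adult count. Foxp2 passed the filter only through fetal libraries, so its direction was built in.

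Foxp3, the lineage factor of regulatory T cells, had counts in both groups. It stood at 8.98, 7.86 and 7.87 CPM in fetal and 7.60, 8.31 and 9.68 CPM in adult libraries, with overlapping ranges (log2 −0.05 ± 0.20, adjusted p = 0.841). T cell genes were near 0 in the same libraries. Cd3e had 19 fetal and 2 adult counts, Cd4 had 1 and 0, Il2ra had 2 and 0, and Ctla4 had 0 and 0. In the annotation Foxp3 shares 18.6% of its exon bases with the RNA Flicr, which had 17 fetal and 7 adult counts. It also places 12.9% of the Foxp3 exon bases on exons of Ccdc22 and 5.81% on exons of Ppp1r3f, both on the other strand. Ccdc22 stood at 19.9 to 24.3 CPM and Ppp1r3f at 17.5 to 20.6 CPM over the 6 libraries, so reads assigned to Foxp3 may be shared with them, which was not tested.

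**Figure D5:**
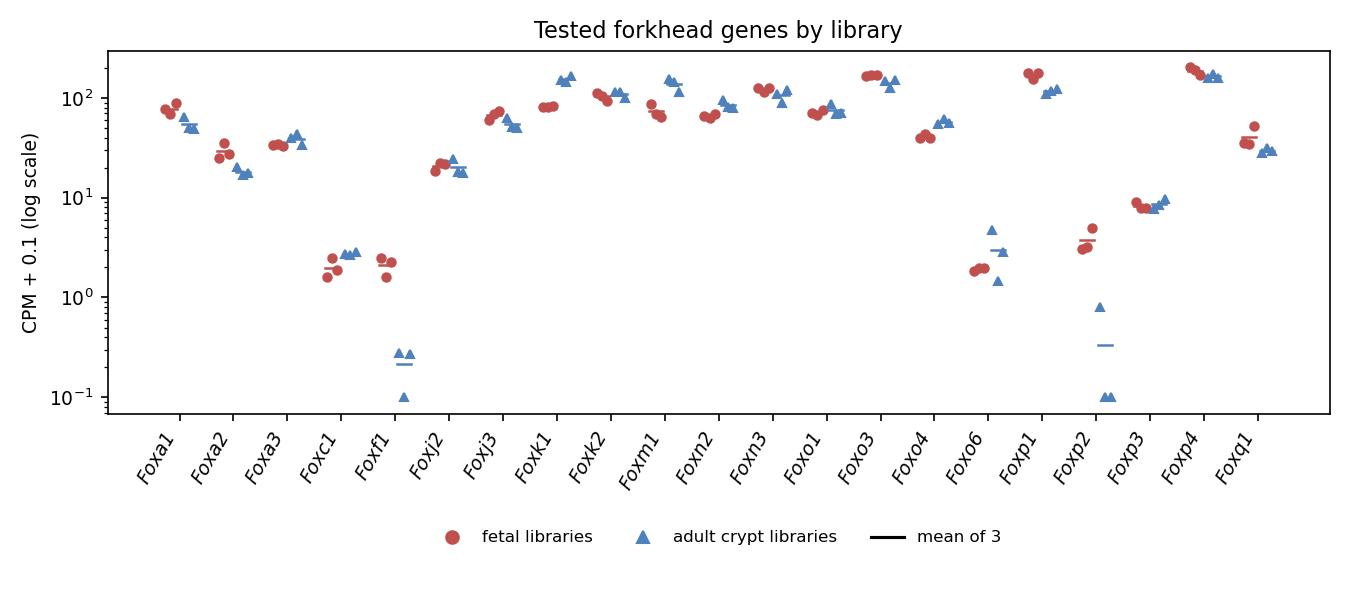
CPM plus 0.1 on a log scale of the 21 tested forkhead genes in 3 fetal (red circles) and 3 adult crypt libraries (blue triangles), with horizontal lines at the group means. Foxf1 and Foxp2 are near 0 in adult cells, Foxk1 and Foxm1 lie lower in fetal cells, and 19 of the 21 differ by less than 2-fold.

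The FOXO genes changed little and in different directions. Foxo3 stood at 166, 168.6 and 168.9 CPM in fetal and 147.4, 126.7 and 151.8 CPM in adult libraries, a small rise (log2 0.24 ± 0.09, adjusted p = 0.0316). The call was lost without any of the fetal replicates or adult replicate 2 (adjusted p from 0.0511 to 0.144). Foxo4 was lower without overlap, at 39.2, 43.4 and 39.6 CPM in fetal and 54.4, 60.7 and 56.5 CPM in adult libraries (log2 −0.49 ± 0.10, adjusted p = 9.02e-04). Foxo1 was at −0.07 ± 0.10 (adjusted p = 0.605). Foxo6, with 49 fetal and 50 adult counts, was at −0.65 ± 0.41 (adjusted p = 0.194), but without adult replicate 2 it was called lower (adjusted p = 0.0396). Per kilobase, Foxo3 held 51.8% ± 0.40 of the FOXO level in fetal and 41.6% ± 2.41 in adult libraries.

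Regulators and targets of FOXO proteins, a list of 26 genes, all tested, had 12 higher and 7 lower (median log2 0.39), beside 29% higher and 25.9% lower among all genes. Sgk3, a kinase related to AKT, was higher by 2.28 ± 0.19, and the coactivator-binding protein Cited2 by 1.01 ± 0.08. The stress protein Sesn1 was lower by −1.78 ± 0.13, and Pik3r1, the regulatory subunit of PI3 kinase, by −1.19 ± 0.10.

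Foxm1, the activator of genes for mitosis, was lower in fetal cells. It stood at 86.3, 69.1 and 64.1 CPM in fetal and 153.6, 146.1 and 115.8 CPM in adult libraries, without overlap (log2 −0.92 ± 0.13, adjusted p = 4.57e-05). Of its 21 listed activators and mitotic targets, 17 were lower and 1 was higher, with a median log2 of −0.46, beside 25.9% lower and 29% higher among all genes. Mybl2, which works with FOXM1, was lower by −1.09 ± 0.13, the kinase Plk1 by −0.62 ± 0.10, the APC/C activator Cdc20 by −0.57 ± 0.09 and the kinetochore motor Cenpe by −0.56 ± 0.10. Skp2, which degrades cell cycle inhibitors, was higher by 0.54 ± 0.12, and the cyclin Ccnb1 was at −0.02 ± 0.17 (adjusted p = 0.933). The adult gate took crypt cells, and its part in these values cannot be told apart from age.

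Foxk1 and Foxk2, factors that govern glycolysis and autophagy genes, differed in their calls. Foxk1 stood at 80.3, 81.2 and 82.6 CPM in fetal and 151.7, 142.9 and 167.5 CPM in adult libraries. Its fetal libraries lay close together and under every adult one (log2 −0.92 ± 0.09, adjusted p = 1.32e-06). Foxk2 stood at 113.3, 104.5 and 93.0 CPM in fetal and 114.2, 114.7 and 100.3 CPM in adult libraries, which overlap (log2 −0.08 ± 0.10, adjusted p = 0.486). Foxk1 held 35.4% ± 2.59 of the FOXK level per kilobase in fetal and 49.3% ± 3.84 in adult libraries.

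Foxn2 was lower and Foxn3, a repressor tied to the DNA damage checkpoint, was not called. Foxn2 stood at 66.1, 62.5 and 68.4 CPM in fetal and 95.1, 80.4 and 80.0 CPM in adult libraries (log2 −0.37 ± 0.10, adjusted p = 0.00505). Foxn3 stood at 126.2, 115.9 and 124.7 CPM in fetal and 110.7, 88.9 and 119.1 CPM in adult libraries, which overlap, at a log2 of 0.20 ± 0.11 (adjusted p = 0.121) and passed without adult replicate 3 (0.30, adjusted p = 0.0351). Foxj3 stood at 60.5, 69.2 and 73.7 CPM in fetal and 63.1, 51.2 and 50.3 CPM in adult libraries. It was called higher by a small step (log2 0.31 ± 0.11, adjusted p = 0.0362) although its ranges overlapped. That call was lost without fetal replicate 2 or 3 or adult replicate 2 or 3 (adjusted p from 0.0906 to 0.127), with DESeq2 (0.0576) and with a replicate block (0.0619). Foxj2 was at 0.06 ± 0.16 (adjusted p = 0.761).

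The remaining forkhead genes had few counts. Foxj1, the master factor of motile cilia, had 13, 7 and 10 fetal and 2, 4 and 0 adult counts, a ratio of 3.25 (1.33 to 9.54). Of 10 genes of multiciliated cells, 3 were tested, Dnah9 and Ccdc40 higher in fetal cells and Ccdc39 not called. Ccdc40 passed the filter only through fetal libraries. The 10 genes summed to 20.5 to 27.5 CPM in fetal and 5.83 to 6.62 CPM in adult libraries, mostly Dnah9. Gmnc, a starter of that lineage, had 0 counts. The part of such cells in the Foxj1 counts was not tested. Foxi3 had 7, 4 and 4 fetal and 0 adult counts, 3.25-fold higher with the adult total set to 3 counts (95% interval from 2.33). Foxh1, Foxn1 and Foxr2 had at most 5 counts in a group. Foxb1, Foxb2, Foxd4, Foxe3, Foxi1, Foxi2, Foxl2, Foxl3, Foxn4 and Foxr1 had 0 counts in all 6 libraries, as did Foxs1, Sox3 and Sox17.

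Per kilobase of exon the order of the members was similar at the top of both groups. In adult cells Sox9 at 55.8 ± 6.11 CPM was followed by Sox4 at 44.8 ± 4.43, Foxp4 at 33.4 ± 1.84, Foxm1 at 24.1 ± 3.48 and Foxk2 at 20.9 ± 1.55 (SD, n = 3). Foxm1 and Foxk2 overlap in their libraries. In fetal cells Sox9 at 41.5 ± 4.82 CPM and Foxp4 at 38.2 ± 3.22 overlap, followed by Sox4 at 29.0 ± 3.29, Foxa1 at 23.5 ± 3.13 and Foxo3 at 22.2 ± 0.21, of which Sox4 overlaps with Foxa1 and Foxa1 with Foxo3. Sox11 stood in the 19th place in fetal and the 39th in adult cells, and Sox12 in the 15th and the 22nd. Foxm1 stood in the 8th place in fetal and the 4th in adult cells.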

How the data were processed

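RNA-seq counts of 6 libraries, 3 of fetal and 3 of adult crypt epithelium, were analysed. The deposited values are whole-number counts per gene, not normalized by the authors, as read from the values, with Entrez identifiers and symbols per the file headers. The submitters' processing notes name the build mm10 and edgeR. For aligner, annotation and strand setting the entry is: not given in the sources used here. Adult libraries were made with a stranded low-input total RNA kit (SMARTer Pico v2), per the labels' protocols. For fetal libraries the kit is not stated, so kit and age cannot be told apart. Column names of the adult libraries were matched to titles by age, tissue and replicate number. The organoid table pairs no gene names with its rows and was not used here.

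The comparison used edgeR 4.0.16 under R 4.3.3, by its quasi-likelihood F test (TMM, filterByExpr with a minimum count of 10, group means, no other term), with Benjamini-Hochberg adjustment over 13314 genes and a threshold of 0.05. The SE is the log2 fold change divided by the square root of F and can be too small where a group has few counts. CPM used the TMM-scaled library size. Ratios of low counts carry exact 95% intervals, and a total of 0 was replaced by a floor of 3 counts over the group. The intervals cover counting error only, and a fold taken from the floor leaves out the counting error of the other group. Replicates differed from each other beyond counting noise (chi-square over its degrees of freedom, 4.83 to 9.44). The procedure was tested on simulated counts drawn from the adult means, with far fewer changed genes than were called here. That run cannot show how the procedure performs where changes are as widespread as in these data.

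Exon lengths and overlaps came from GENCODE vM21 (63 of 64 members), coordinates and promoter windows from RefSeq on GRCm38.p6 (64 and 41 members). Members and lists were chosen with earlier results of these data known. The text accounts for the members, of which 1 is not reported by name here, gives values by library for called members and the leading member of each tested group, and names up to 4 called genes with the smallest p of each list and markers at 0. Other named genes, such as Skp2, Ccnb1, Tcf7l2, Pdgfra, Anxa10, and the T cell, tuft, glial and overlapping genes, were chosen after their values were seen. The fit was repeated with DESeq2 1.42.0, with RLE factors, with unscaled library sizes, without the filter, with a replicate block, without rRNA rows, and without each library in turn.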

Additional observations from a re-analysis of the deposited data

How the results depend on the processing

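The number of members called was 18 with RLE factors and without rRNA rows, as in the reported fit, 19 with library size only, 20 of 41 tested with DESeq2, 23 of 50 tested with no filter, and 15 to 20 when each library was left out. As shares, these are 64.3% of members in the reported fit (all genes 54.9%), 48.8% with DESeq2 (42.7%) and 46% with no filter (42.4%), and 55.6% without fetal replicate 3 (49.2%). SOX calls ran from 6 to 8 and forkhead calls from 9 to 15 over these settings. Of 334 values of single tested members under the alternatives, 316 kept their call, 13 lost it and 5 gained it, and 0 called values changed direction. The losses were of Foxq1, Foxj3 and Foxo3 and the gains of Foxa3, Foxo6, Foxn3 and Foxp4. Foxf1 gave no value without fetal replicate 1 or 3, where it fell under the filter. Without a filter, 5 further members were called higher: Sox21, Foxf2, Sox2, Foxi3 and Foxe1, with adjusted p from 3.17e-06 to 0.0371. With a replicate block 17 members were called, 6 SOX and 11 forkhead, and 6886 of all genes against 7304. Same-numbered libraries did not deviate together (correlations of −0.0802, −0.0383 and −0.107). With 3 libraries a group these values cannot decide whether same-numbered samples shared a batch, and the labels give none. Depth limits the 22 members under the filter, 12 of which had at most 10 counts in all.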

Other observations

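Some forkhead genes lie near each other on a chromosome. On chromosome 13 (GRCm38.p6), Foxq1 (31558170 to 31560976), Foxf2 (31625816 to 31631406) and Foxc1 (31806646 to 31810635) lie in a row. Foxq1 had 1115 fetal and 514 adult counts, Foxf2 33 and 0, and Foxc1 50 and 46. The counts here are unscaled totals, and the fetal libraries were deeper. Scaled to library size, the fetal to adult ratio was 1.41 (1.27 to 1.57) for Foxq1 and 0.706 (0.463 to 1.08) for Foxc1. On chromosome 8, Foxf1 (121084386 to 121088154), Foxc2 (121116171 to 121118895) and Foxl1 (121127685 to 121130644) had 54, 1 and 9 fetal and 2, 1 and 0 adult counts. On chromosome 4, Foxd2 (114906280 to 114908898) and Foxe3 (114924443 to 114926067) had 7 and 0 fetal and 8 and 0 adult counts.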
